A study of Danio rerio with 6 samples.

Results

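Motile cilia are beating projections that move fluid over epithelia, and their core, the axoneme, is a ring of microtubule doublets around a central pair. Dynein arms on the doublets drive the beat, radial spokes carry signals between the centre and the arms, and forkhead factors of the Foxj1 type switch on the genes that build them. In zebrafish larvae such cilia line the kidney tubules, the nasal pits and the ventricles of the brain and spinal cord. The members here were 52 of the 23876 genes in a table of whole-larva RNA, chosen by name. They were ttc29, foxj1a, foxj1b and every gene whose symbol begins with dnah, dnai, dnal, dnaaf, cfap or rsph. Where a gene had several transcript rows, the row with the highest mean over all libraries stood for it. The families and ttc29 were themselves picked with earlier results on these 2 genotypes known, so the levels are a description.

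The study compared larvae homozygous for a mutation in znf469, whose genotype the labels give as znf469-KO and the design text as znf469-4del, with wild type larvae (wt in the labels). Each of 3 mutant and 3 wild type libraries came from a pool of 50 whole larvae at 7 days post fertilization, raised at 28.5 °C. The labels give no background strain, no clutch and no batch, and nothing says that the pools of a group came from separate clutches, so the p-values below speak of the variation among these 6 pools alone. In whole larvae, fewer ciliated cells and less RNA per ciliated cell cannot be told apart.

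Values are the authors' normalized read counts per transcript. Recovered reads per library ranged from 17023269 to 19156581 over all rows and from 8111192 to 9683579 over 1 row per gene. Transcript rows of a gene can hold equal values in every library, as rows of cfap61 do. The sum over all rows is therefore not a library depth. The 52 members took 0.0173% to 0.0200% of the reads over 1 row per gene. On the first principal component (47.3% of the variance) mutant replicates 1 to 3 lay at 48.4, 12.8 and 54.5. Wild type replicates 1 to 3 lay at -3.14, -49.2 and -63.5. Of pools of different genotype, mutant replicate 2 and wild type replicate 1 lay nearest each other on this component. These 2 pools lay at opposite ends of the second component, away from the rest, at -53.0 and 60.4 (27.2% of the variance). Pools of 1 genotype were further apart than read sampling gives, with a chi-square of 4.97 to 19.7 per gene. The znf469 transcript itself had 233, 186 and 209 normalized read counts in mutant pools, against 296, 198 and 206 in wild type pools, which overlap. Since a mutant allele can leave mRNA abundance as it was, this is no check of the labels. Muscle, epidermal, liver and gut markers of whole larvae were read in every library. Muscle markers summed to 362300 to 505500 in mutant pools, against 544500 to 683100 in wild type pools, and epidermal markers to 53920 to 105500 in mutant pools, against 129600 to 149700 in wild type pools. Photoreceptor markers summed to 34010 to 47750 in mutant pools, against 49580 to 62720 in wild type pools, but single markers went both ways. Their log2 fold changes were -0.31 (rho), -0.66 (opn1sw1), -0.80 (opn1sw2), -0.09 (gnat1), -0.66 (gnat2), -0.14 (pde6c), 0.01 (pde6a), 0.17 (arr3a) and 0.12 (saga). Liver, gut and pancreas markers summed to 61560 to 96580 in mutant pools, against 74440 to 83760 in wild type pools. The last sums overlap, yet all 3 liver markers were lower in every mutant pool, with log2 fold changes of -0.74 (fabp10a), -0.85 (apoa1b) and -1.40 (tfa), while the pancreatic enzymes try and ctrb1 were at 0.26 and 0.65. Single muscle and epidermal markers also varied. The groups overlapped for myhz2 (log2 fold change 0.03), actc1b, mylpfa, ckma, krt17, cldni, tp63 and icn. In limma 1 of 7 muscle markers (acta1b), 1 of 7 epidermal (krt5) and 2 of 7 liver, gut and pancreas markers (fabp10a and tfa) passed, all lower. Of the photoreceptor markers 0 of 9 passed, and over all genes tested 4.49% did. By the authors' deposited q-values more of these markers were under 0.05, all lower in mutant pools. They were actc1b, tnnt3b, krt4, krt91, apoa1b, opn1sw1, opn1sw2 and gnat2, beside those that passed in limma. The part of all these markers in the member values was not tested.

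Among the motile cilia and axoneme genes, ttc29 alone was near 0 in one genotype and well read in the other. The other 51 had means from 1.13 to 260 and a median of 19.3 normalized read counts, where the median over all 22803 genes tested was 84.5. One of them, the assembly factor dnaaf3, was too low to be tested. Of the 50 tested, none rose (0) and none fell (0) at a Benjamini-Hochberg adjusted p under 0.05 in limma. Over all genes tested the share called was 4.49%, with 2.31% higher and 2.18% lower. At an unadjusted p under 0.05 there were 3 members, dnali1, cfap73 and dnaaf5, against 18.2% of all genes, and edgeR and DESeq2 on recovered reads also called 0. The smallest adjusted p in limma was 0.188. In the authors' deposited table, too, no member other than ttc29 had a q-value under 0.05 (0 of 51), and the smallest was 0.162.

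The log2 fold changes of mutant over wild type, on the log2(value + 1) scale, were positive for 21 of the 50 and negative for 29. Their median was -0.06, against -0.0015 over all genes, and their median size regardless of sign was 0.25, against 0.30 over all genes. For 19 of the 50 the 95% interval of the log2 fold change lay wholly inside a bound of 1 either way, a 2-fold change, as it did for 50.8% of all genes. For the other 31 the interval reached beyond it, so a 2-fold difference lies within what these pools allow. The groups did not overlap for 8 members (4 with mutant above and 4 with mutant below), and for 23.4% of all genes tested (11.6% above and 11.8% below).

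**Figure D1:**
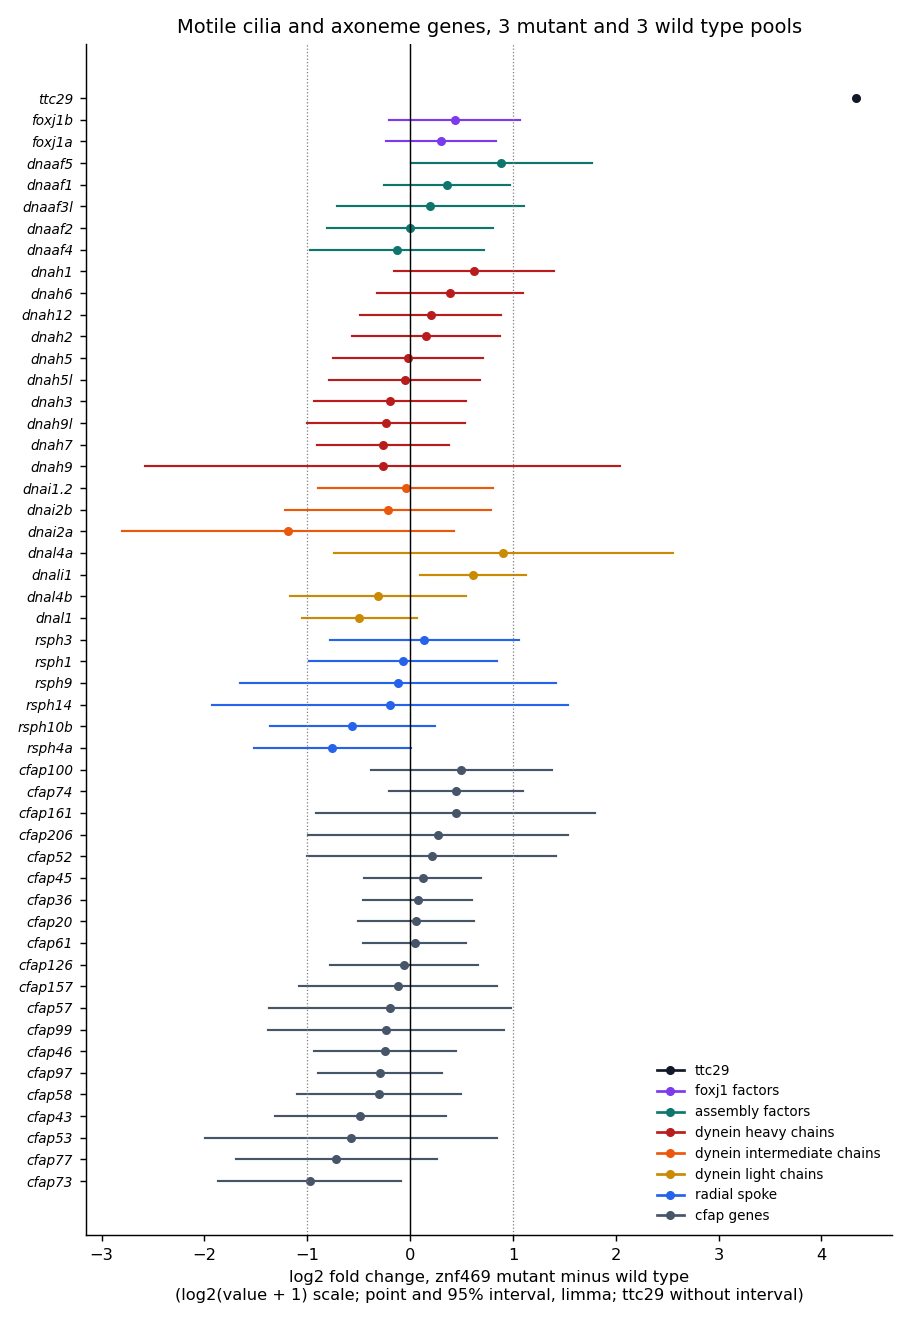
Log2 fold change of mutant over wild type for ttc29 and the 50 other members tested, in limma on log2(value + 1), with 95% intervals for all but ttc29. Colours give the class, the solid line is no difference and the dotted lines mark a log2 change of 1. Apart from ttc29 the points lie between -1.18 (dnai2a) and 0.91 (dnal4a).

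The 2 Foxj1 factors, forkhead proteins that direct the motile cilium programme in zebrafish, had positive fold changes that did not pass. The transcript of foxj1a had 71.2, 59.3 and 60.8 normalized read counts in mutant pools, against 53.8, 50.0 and 50.5 in wild type pools. All 3 mutant pools were above all 3 wild type pools, with means of 63.8 ± 6.49 in mutant and 51.4 ± 2.08 in wild type pools (SD, n = 3 each). The log2 fold change was 0.30 (95% interval -0.23 to 0.83, adjusted p by Benjamini-Hochberg in limma = 0.563). The transcript of foxj1b had 47.8, 80.8 and 53.6 in mutant pools, against 42.5, 40.2 and 48.5 in wild type pools. Here mutant replicate 2 was high and the groups overlapped (log2 fold change 0.43, interval -0.20 to 1.07, adjusted p = 0.477). Over the 6 libraries, the genes most like foxj1a in log2(value + 1), among 19277 with a mean of 10 or more, were tb, kbtbd11, stag2b, crb3a and ppp1r9ba, with a Pearson r of 0.990 for tb and 0.976 for kbtbd11, as a description. None of these 5 is a member. Those most like the summed members other than ttc29 were vdac1, mrps18b, rpl14, nedd8 and rab1bb, with r from 0.991 to 0.998, also as a description. In a search of 19277 genes over 6 libraries, such r values can arise without any relation.

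The 6 dnaaf genes encode factors that fold and assemble dynein arms in the cytoplasm before they enter the cilium. The one with the largest shift was dnaaf5, the zebrafish form of HEATR2, with 17.8, 19.4 and 18.6 normalized read counts in mutant pools, against 14.2, 6.87 and 8.91 in wild type pools. Mutant pools were tightly grouped and above every wild type pool. Its log2 fold change was 0.89 (SE 0.39, adjusted p by Benjamini-Hochberg in limma = 0.268). The one with the highest counts, dnaaf1 (the leucine-rich repeat gene also called lrrc50), had 53.4, 71.1 and 66.0 in mutant pools, against 50.1, 38.3 and 61.4 in wild type pools, with overlap (0.36, adjusted p = 0.549). Levels of dnaaf4 were 13.1, 19.4 and 16.5 in mutant pools, against 12.3, 21.6 and 20.8 in wild type pools, which cover the same range. With dnaaf2 and dnaaf3l also overlapping, 3 of the 5 tested had positive and 2 negative fold changes, with a median of 0.20.

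Dynein heavy chains are the motors of the outer and inner arms. Of the 10, 4 had positive and 6 negative log2 fold changes, from -0.27 to 0.62, and in each the groups overlapped. The transcript of dnah1, an inner arm chain, had 56.2, 37.7 and 62.9 normalized read counts in mutant pools, against 48.2, 32.4 and 22.8 in wild type pools (log2 fold change 0.62, SE 0.35, adjusted p by Benjamini-Hochberg in limma = 0.396). Another inner arm chain, dnah6, had 45.0, 34.5 and 30.9 in mutant pools, against 35.9, 22.6 and 25.7 in wild type pools (0.39, adjusted p = 0.580). These were the largest shifts of the class among genes with a mean of 10 or more. Levels of dnah5, an outer arm chain whose human form is mutated in primary ciliary dyskinesia, were 48.7, 58.2 and 38.1 in mutant pools, against 58.6, 60.8 and 31.7 in wild type pools. Those of dnah5l, a copy of it by name, were 45.9, 51.7 and 69.1 in mutant pools, against 84.0, 57.9 and 37.6 in wild type pools. For both, the mutant values lay inside the wild type range. Reads of such paired copies (also dnah9 and dnah9l, dnai2a and dnai2b, dnal4a and dnal4b) may have been split between them.

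Within this class the wild type pools spread widely while the group means lay close. The summed heavy chain level was 378, 373 and 406 normalized read counts in mutant pools, against 482, 370 and 279 in wild type pools. The means were 385 ± 18.0 in mutant and 377 ± 101 in wild type pools (SD, n = 3 each). Wild type replicate 1 was the highest wild type pool for 9 of the 10 genes and replicate 3 the lowest for 8, where over all genes tested those shares were 36.2% and 33.0%. In the 20 cfap genes the order was the other way, with wild type replicate 1 lowest for 11 (55.0%, against 43.6% of all genes) and replicate 3 highest for 11 (55.0%, against 38.5%). This ordering was noticed after the values were seen. The clock gene per3 had 354, 95.9 and 518 in mutant pools, against 564, 88.3 and 86.1 in wild type pools. It was high in wild type replicate 1 and in mutant replicates 1 and 3, and its part in the heavy chain levels was not tested.

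**Figure D2:**
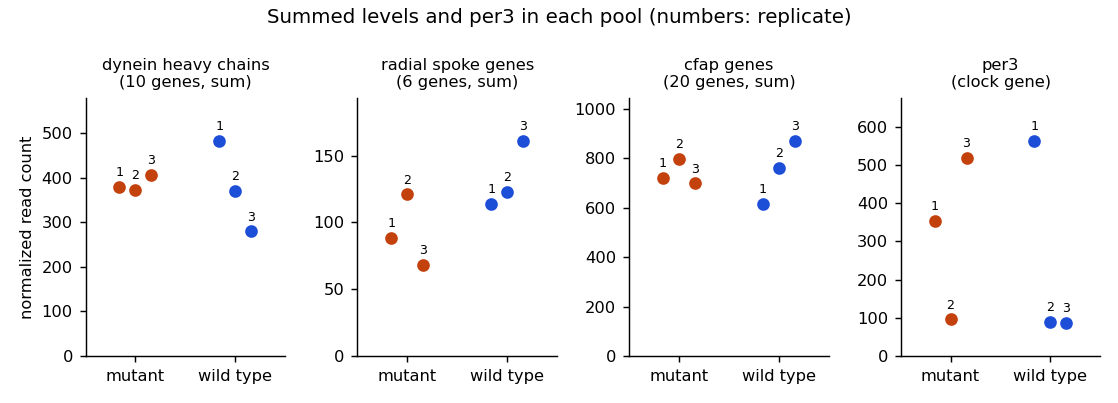
Normalized read counts per pool, summed over the dynein heavy chains, the radial spoke genes and the cfap genes, with per3 at the right. Each point is 1 pool with its replicate number, mutant left and wild type right. Heavy chain sums run from 482 in wild type replicate 1 to 279 in wild type replicate 3, and all 3 mutant sums (373 to 406) lie between them.

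The intermediate chains dnai1.2, dnai2a and dnai2b, which hold the outer arm together at its base, all had negative fold changes and overlapping groups. Levels of dnai1.2 were 24.4, 17.2 and 29.9 normalized read counts in mutant pools, against 16.1, 25.5 and 33.7 in wild type pools. Those of dnai2b were 15.0, 6.47 and 10.3 in mutant pools, against 15.1, 13.7 and 7.92 in wild type pools. Both pairs of ranges nearly coincide, with log2 fold changes of -0.04 and -0.22. The third, dnai2a, was at or under 5.94 in every pool and at 0 in mutant replicate 2, so its fold change of -1.18 had an interval of -2.80 to 0.43.

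Among the light chains, a pair without overlap had fold changes of opposite sign, and neither passed. The transcript of dnali1, a light intermediate chain of the inner arms, had 84.3, 87.3 and 80.4 normalized read counts in mutant pools, against 58.6, 47.1 and 59.4 in wild type pools. The gap between the groups was wider than the range within either, with means of 84.0 ± 3.45 in mutant and 55.0 ± 6.88 in wild type pools (SD, n = 3 each). Its log2 fold change was 0.61 (SE 0.23, 95% interval 0.10 to 1.12, adjusted p by Benjamini-Hochberg in limma = 0.188). The outer arm light chain dnal1 had 49.7, 45.3 and 40.2 in mutant pools, against 56.7, 62.8 and 72.2 in wild type pools. Every mutant pool was below every wild type pool (-0.49, SE 0.25, adjusted p = 0.343). The transcript of dnal4a varied most with the pool, at 33.7, 10.8 and 38.1 in mutant pools, against 30.2, 18.6 and 2.97 in wild type pools (0.91, SE 0.74, adjusted p = 0.576). It was highest in the same 3 pools as per3, a link that was not tested.

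Of the 6 radial spoke genes, 5 had negative fold changes, and in each of the 6 the groups overlapped. The log2 fold changes of rsph1, rsph9 and rsph14 were -0.07, -0.12 and -0.20. With means of only 4.10 and 2.57 normalized read counts, rsph9 and rsph14 had wide 95% intervals, of -1.653 to 1.415 and -1.928 to 1.533. The summed level was 88.1, 121 and 68.0 normalized read counts in mutant pools, against 114, 123 and 161 in wild type pools. The largest part of this sum was rsph4a, with a mean of 61.6 over all pools. The spoke head gene rsph4a had 37.5, 67.9 and 33.0 in mutant pools, against 53.8, 77.5 and 99.95 in wild type pools. Mutant replicate 2 lay inside the wild type range and the other 2 mutant pools below it (-0.76, SE 0.34, adjusted p by Benjamini-Hochberg in limma = 0.282). A second, less abundant transcript row of rsph4a had 20.6, 25.9 and 13.4 in mutant pools, against 18.9, 27.5 and 28.7 in wild type pools, with a log2 fold change of -0.33 in the authors' deposited table, where the first row had -0.74. Levels of rsph10b were 17.8, 12.9 and 14.4 in mutant pools, against 21.7, 17.7 and 29.7 in wild type pools (-0.56, adjusted p = 0.462). The groups touched at 17.8 and 17.7.

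The 20 cfap genes, named for proteins found in or near cilia and flagella, split into 9 with positive and 11 with negative fold changes (median -0.09). Those with the highest counts were cfap36 and cfap20. Levels of cfap36 were 248, 295 and 242 normalized read counts in mutant pools, against 175, 259 and 337 in wild type pools (log2 fold change 0.07, interval -0.45 to 0.60). Those of cfap20, a protein of the inner junction of the doublets, were 84.3, 131 and 106 in mutant pools, against 77.4, 114 and 119 in wild type pools (0.06, interval -0.51 to 0.62). For both, mutant values lay within or near the wild type range. The largest shifts among genes with a mean of 10 or more were in cfap77 and cfap53. The level of cfap77 was 6.56, 12.9 and 5.15 in mutant pools, against 13.2, 14.7 and 11.9 in wild type pools (-0.72, adjusted p by Benjamini-Hochberg in limma = 0.439). That of cfap53, an inner protein of the doublets needed for left-right asymmetry in zebrafish, was 11.2, 19.4 and 3.09 in mutant pools, against 7.55, 13.7 and 25.7 in wild type pools (-0.57, adjusted p = 0.697). In cfap53 the values within each group spread over more than the difference of the means.

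The cfap genes that follow were picked after their values were seen. The transcript of cfap73 had 6.56, 5.39 and 6.18 normalized read counts in mutant pools, against 11.3, 11.8 and 15.8 in wild type pools, without overlap (log2 fold change -0.98, SE 0.40, adjusted p by Benjamini-Hochberg in limma = 0.222). In the alga Chlamydomonas its protein pairs with that of cfap100 to tether an inner dynein arm. The transcript of cfap100 had 20.6, 21.6 and 11.3 in mutant pools, against 13.2, 12.8 and 9.90 in wild type pools, a shift of the opposite sign (0.50, adjusted p = 0.563). The narrowest interval of all members was that of cfap61, a protein at the base of the radial spoke in Chlamydomonas, at 62.8, 67.9 and 70.1 in mutant pools, against 63.3, 67.7 and 63.3 in wild type pools (log2 fold change 0.05, interval -0.45 to 0.55). The remaining genes without overlap were cfap74 (mutant above), cfap46 and cfap97 (mutant below), with log2 fold changes of 0.45, -0.24 and -0.29.

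These spreads were set beside counting error. Within groups, the variance of recovered reads relative to that of pure counting had a median of 1.36 over the 51 members other than ttc29, where 1 is counting alone. It was under 1 for 15 of them and over 2 for 19, and the highest values were those of cfap36 (14.9), dnal4a (9.19) and rsph4a (7.35).

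**Figure D3:**
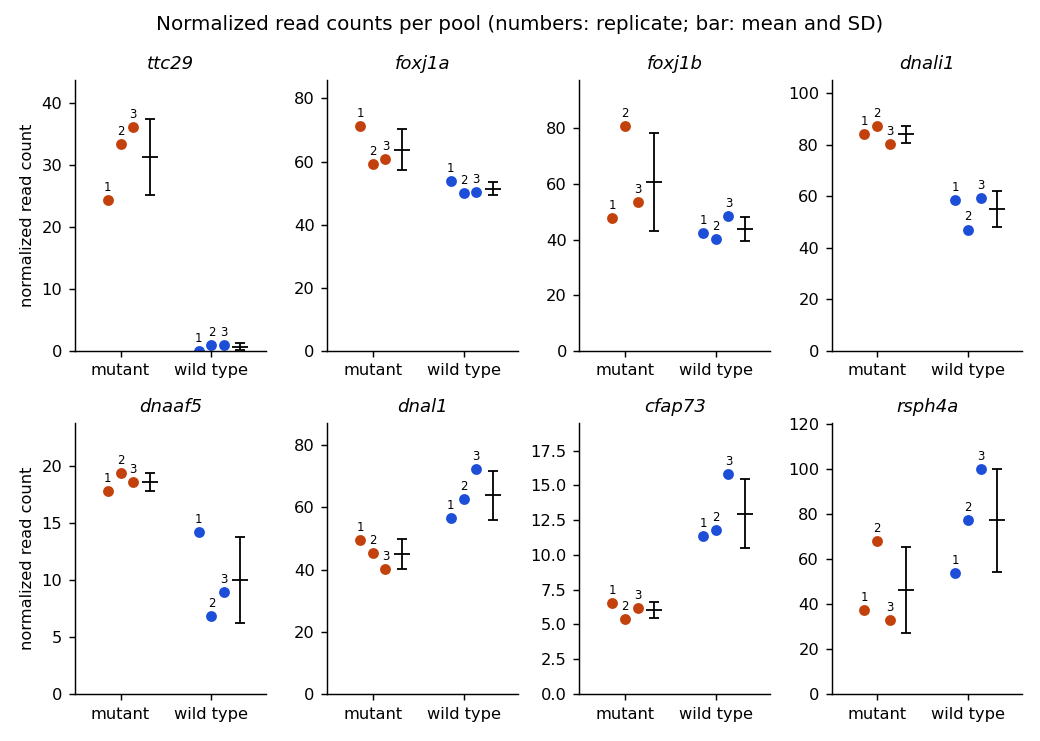
Normalized read counts in each pool for ttc29, the Foxj1 factors and 5 other members with the shifts described, from 0 upward. Points are pools with their replicate number, and the bar is the mean and SD of 3 pools, mutant left and wild type right. Mutant and wild type pools do not overlap for ttc29, foxj1a, dnali1, dnaaf5, dnal1 and cfap73, and overlap for foxj1b and rsph4a.

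The exception was ttc29, a tetratricopeptide repeat protein known in human and mouse from sperm flagella, where its loss impairs motility. It was named singly in the choice of members with earlier results of these data known, so its values are a description, with no test. It had 24.4, 33.4 and 36.1 normalized read counts in mutant pools, against 0, 0.981 and 0.990 in wild type pools. These are 26, 31 and 35 recovered reads in mutant pools, against 0, 1 and 1 in wild type pools. Every mutant pool was far above every wild type pool, with means of 31.3 ± 6.14 in mutant and 0.657 ± 0.569 in wild type pools (SD, n = 3 each). The ratio of summed reads, 92 in mutant and 2 in wild type pools, was 47.9 after scaling. It rests on those 2 wild type reads, so its size is poorly fixed, and it is a description only. Its other transcript row gave nearly the same values, with 23.4, 33.4 and 36.1 in mutant pools, against 0, 0.981 and 0.990 in wild type pools. Both rows may hold the same reads.

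None of the genes beside ttc29 had a fold change of its size. In the RefSeq table of the assembly GRCz12tu, used here for gene order and for matching symbols, ttc29 and znf469 lie on different chromosomes. Of the 10 nearest genes of the table, 5 on each side, none passed in limma (0 past the threshold, against 4.49% of all genes, and 3 at an unadjusted p under 0.05, against 18.2%, smallest Benjamini-Hochberg adjusted p = 0.177), with log2 fold changes from -0.26 (mrpl51) to 0.94 (arnt). The adjacent ppp1r8b, a regulatory subunit of protein phosphatase 1, had 103, 89.4 and 111 normalized read counts in mutant pools, against 92.5, 105 and 107 in wild type pools. Its other neighbour in the table, the vascular growth factor gene vegfaa, had 80.6, 89.4 and 97.9 in mutant pools, against 93.5, 60.8 and 66.3 in wild type pools. Both overlap between genotypes, while yrdc and rrp15 (mutant above) and mrpl51 (mutant below) did not, or 3 of 10, against 23.4% of all genes. Germ cell markers were also read, because ttc29 is known from sperm flagella in human and mouse. They mark the germ line and not sperm or flagella, and their relation to ttc29 was not tested. The 7 markers summed to 122 to 214 in mutant pools, against 148 to 203 in wild type pools. The highest was sycp1, with a mean of 91.4 over all pools, where the median over all genes tested was 84.5. The others had means of 29.1 or less. None of 6 tested passed in limma (0, against 4.49% of all genes, and 0 at an unadjusted p under 0.05, against 18.2%). The germ cell marker nanos3 was at 0 in all 3 mutant pools and at 3.92 or less in wild type pools.

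**Figure D4:**
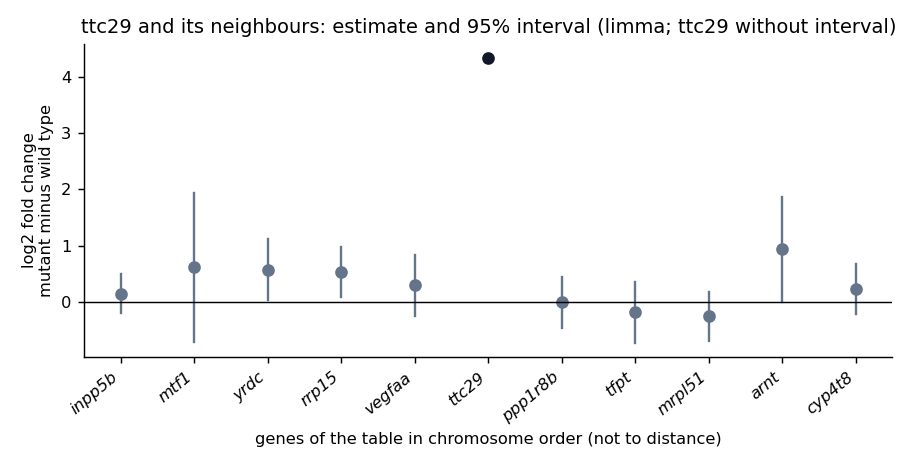
Log2 fold change of mutant over wild type for ttc29 and the 5 nearest genes of the table on each side, in chromosome order, with 95% intervals in limma for all but ttc29. The 10 neighbours lie between -0.26 and 0.94.

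Markers of tissues that bear motile or sensory cilia gave no called gene in limma, where 4.49% of all genes were called. The counts were 0 of 7 for the pronephros, 0 of 8 for olfactory neurons, 0 of 10 for hair cells and 0 of 7 for the neural tube. The neural tube list held shha, shhb, foxa2, spon1b, urp1, urp2 and pkd2l1. At an unadjusted p under 0.05 in limma there were 1, 2, 2 and 1, against 18.2% of all genes. Lists this short hold few calls at that share, so the counts of 0 say little about the tissues. Olfactory markers summed to 371 to 395 normalized read counts in mutant pools, against 315 to 323 in wild type pools, and hair cell markers to 1498 to 1639 in mutant pools, against 1274 to 1473 in wild type pools. The mutant sums were above the wild type sums, but single markers went both ways. In the olfactory list ompa, cnga4 and s100z were above wild type in every mutant pool and ebf2 below (-0.74). In the hair cell list s100s was above and tmc2b (-1.21) and atoh1a (-0.68) below. Of these 4 lists only tmc2b had a q-value under 0.05 in the authors' deposited table (0.016). Pronephros markers summed to 2464 to 2984 in mutant pools, against 2622 to 2886 in wild type pools, and neural tube markers to 1113 to 1387 in mutant pools, against 1052 to 1378 in wild type pools. These sums overlap. No marker of these 4 lists was at 0 in any pool. The part of any of these tissues in the member values was not tested.

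Other genes of the cilium, outside the named families, gave 3 calls. Of 124 such genes in 5 lists, 123 were tested, and 1 rose, 2 fell and 120 did not pass in limma, or 2.44% called, against 4.49% over all genes. Their median log2 fold change was 0.03. At an unadjusted p under 0.05 in limma there were 13 of 123, against 18.2% of all genes. By list these were 5 of 17 docking, ruler and regulatory complex genes, 4 of 38 transport and BBSome genes and 3 of 15 regulators. They were 1 of 36 central pair, tektin and other axoneme genes and 0 of 17 assembly factors. Of 36 central pair, tektin and other axoneme genes, 6 were above and 1 below without overlap. The counts were 0 and 1 of 17 assembly factors, and 3 and 4 of 38 transport and BBSome genes. They were 3 and 3 of 17 docking, ruler and regulatory complex genes, and 0 and 4 of 15 regulators. Over all genes tested these shares were 11.6% and 11.8%. The 3 genes called were ccdc39, flr and myb, and each is described with its list. A q-value under 0.05 in the authors' deposited table was held by 6 of the 124, these 3 with ccdc65, ift74 and wdr35.

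The list of outer arm docking, axonemal ruler and nexin-dynein regulatory genes had 1 of 17 lower, none higher (0) and a median of -0.11. The gene that fell was ccdc39, a coiled-coil protein of the ruler that spaces the arms and spokes along the doublet. It had 13.1, 19.4 and 16.5 normalized read counts in mutant pools, against 46.3, 44.1 and 52.4 in wild type pools (log2 fold change -1.50, SE 0.31, adjusted p by Benjamini-Hochberg in limma = 0.0243). Its partner in the ruler, ccdc40, had 80.6, 64.6 and 82.5 in mutant pools, against 22.7, 52.0 and 46.5 in wild type pools. Both genes had groups without overlap, in opposite directions, and the shift of ccdc40 did not pass (0.97, SE 0.34, adjusted p = 0.150). The regulatory complex was also uneven. Its subunit gene ccdc65, or drc2, had 35.6, 20.5 and 30.9 in mutant pools, against 10.4, 10.8 and 8.91 in wild type pools (1.41, adjusted p = 0.0599). Its subunit drc3 had 19.7, 23.7 and 15.5 in mutant pools, against 26.4, 50.0 and 44.5 in wild type pools (-0.97, adjusted p = 0.172), and gas8, or drc4, had 139, 110 and 106 in mutant pools, against 54.8, 88.3 and 83.1 in wild type pools (0.66, adjusted p = 0.188). None of these 3 subunits passed here, although ccdc65 passed under 4 of 14 alternatives, among them edgeR on recovered reads (adjusted p = 0.0494) and summed rows (0.0436), and in the authors' deposited table its q-value was 0.0200. The genes ccdc40, ccdc65, drc3 and gas8 were picked after their values were seen.

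In the list of intraflagellar transport and BBSome genes, which serve primary and motile cilia alike, 1 of 38 rose, none fell (0) and the median was -0.02. It was flr (fleer, the zebrafish IFT70 subunit of the transport trains), with 231, 224 and 266 normalized read counts in mutant pools, against 137, 123 and 119 in wild type pools (log2 fold change 0.92, SE 0.18, adjusted p by Benjamini-Hochberg in limma = 0.0173). The transport subunit ift74, picked after its values were seen, had 287, 367 and 309 in mutant pools, against 168, 215 and 218 in wild type pools (0.68, adjusted p = 0.0676). The groups did not overlap for either. The transport subunit wdr35, picked in the same way, had 171, 147 and 199 in mutant pools, against 238, 272 and 307 in wild type pools, a difference of the opposite sign (-0.66, adjusted p = 0.0834). The BBSome gene bbs4, picked after its values were seen, was also lower without overlap (-0.82, adjusted p = 0.169). Of the 38 genes, 3 were without overlap above and 4 below, where over all genes tested the shares were 11.6% and 11.8%. In the authors' deposited table ift74 and wdr35 had q-values of 0.00462 and 0.0113. The motor gene kif3a, which has high counts in this list, had 570, 523 and 435 in mutant pools, against 441, 564 and 552 in wild type pools, and wdr34 likewise overlapped (log2 fold changes -0.03 and -0.11).

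Among 15 tested regulators of multiciliated cells, 1 fell, none rose (0) and the median was -0.06. The gene was myb, which acts in multiciliated cells and is better known from blood progenitors, with 61.8, 95.9 and 68.0 normalized read counts in mutant pools, against 146, 163 and 139 in wild type pools (log2 fold change -1.0, SE 0.23, adjusted p by Benjamini-Hochberg in limma = 0.0371). The genes with the highest counts of the list, rfx1a and rfx1b, of the family that binds the X-box of ciliary promoters, were at -0.06 and 0.28 and overlapped. None of 36 central pair, tektin and other axoneme genes passed in limma, and none of 17 assembly factors under other names (0 of each). The share called over all genes was 4.49%. At an unadjusted p under 0.05 in limma there were 1 and 0, against 18.2% of all genes, and the medians of these lists were 0.23 and 0.12. Their members with the highest counts were mns1 and ak7a (0.41 and -0.21) and ulk4 and ruvbl1 (-0.03 and 0.14). Once mutant replicate 1 or 3 or wild type replicate 2 or 3 was left out, the calls of ccdc39, flr and myb all ended, at adjusted p up to 0.118, 0.111 and 0.207, with the log2 fold changes still at -1.36 or below, 0.85 or above and -0.87 or below.

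**Figure D5:**
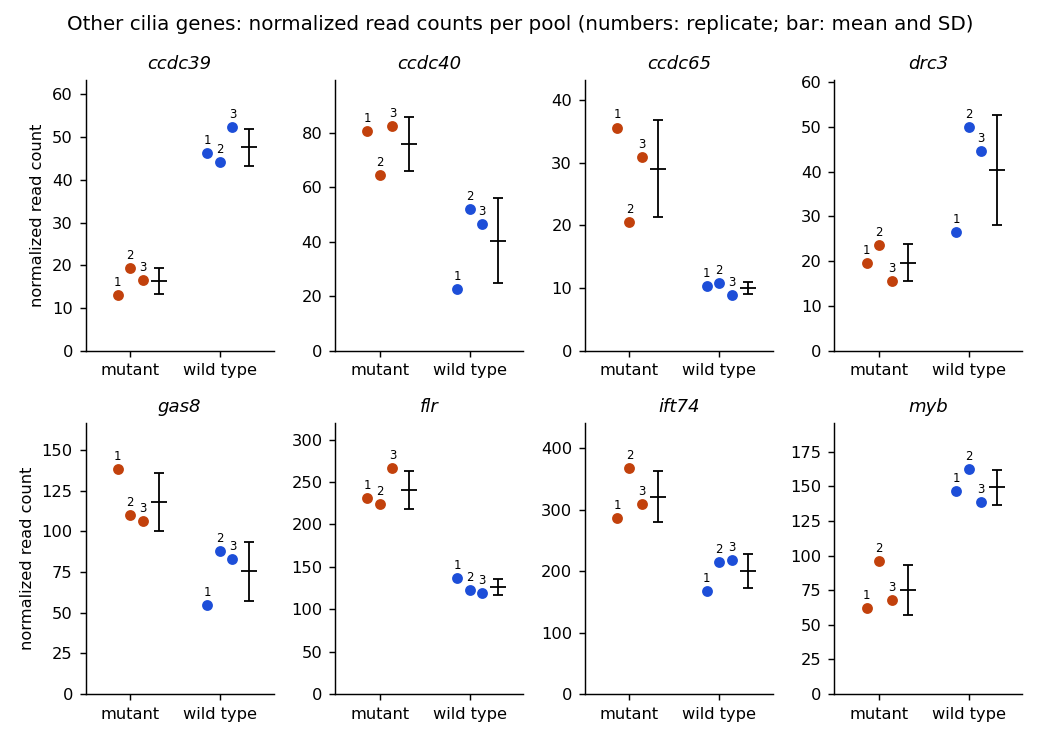
Normalized read counts in each pool for 8 cilia genes outside the named families, from 0 upward. Points are pools with their replicate number, and the bar is the mean and SD of 3 pools, mutant left and wild type right. In all 8 the groups do not overlap, with ccdc39, drc3 and myb lower and the other 5 higher in mutant pools, and of the 8 only ccdc39, flr and myb passed in limma. The genes ccdc40, ccdc65, drc3, gas8 and ift74 were picked after their values were seen. Over all genes tested the groups do not overlap for 23.4%.

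Leaving out both libraries that stood apart brought 3 members past the threshold, in a fit that called 23.7% of all genes. These were dnah1 at 1.1, dnal4a at 2.06 and rsph4a at -1.30 (adjusted p by Benjamini-Hochberg in limma 0.0207, 0.0318 and 0.00422). The libraries left in for that fit were mutant replicates 1 and 3 and wild type replicates 2 and 3. Those mutant pools were high and those wild type pools low in per3, whose part in the 3 calls was not tested.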

How the data were processed

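Per the labels' protocols, polyadenylated RNA of whole larvae, cut to fragments near 200 bp, was sequenced from both ends (150 bp). The authors deposited 1 normalized signal value per RefSeq transcript and library, on GRCz11 per the submitters' processing notes, and, per the file headers, each transcript's p-value, q-value and log2 fold change. Not given in the sources used here: the aligner, the counter, the strand setting, the treatment of shared reads and the test. Dividing a library's deposited signal by its smallest step gave whole reads (100% within 0.001), although the step of wild type replicate 3 (0.990) is close to 1.

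Each gene was 1 row, that with the highest mean, which gives 23876 genes from 45602 rows; 15 members had several rows. limma 3.58.1 was run with an intensity trend on log2(value + 1) for the 22803 genes that reached 1 in no fewer than 3 libraries, and p-values were adjusted by Benjamini-Hochberg over all of them (threshold 0.05). Fold changes understate low genes. edgeR 4.0.16 (quasi-likelihood) and DESeq2 1.42.0 on recovered reads, another pseudocount, other filters, summed rows, a replicate block and each library left out were alternatives. The scripts were tested on simulated data with changes planted only in genes above a minimum of reads, so power at low levels was not tested. Listed cilia genes and markers were matched to the deposited symbols, or through synonyms in the RefSeq table of GRCz12tu. Depth limits precision at the levels of most members.

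The members, lists and tests were chosen with earlier results of these data known. Named members are the Foxj1 factors, ttc29 and, per class, the 2 with the highest mean and the 2 with the largest fold change at a mean of 10 or more; named list genes are those past the threshold and the 2 with the highest mean. Other members and list genes were named with their values known, also where this is not said.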

Additional observations from a re-analysis of the deposited data

How the results depend on the processing

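Under 13 of 14 alternatives 0 members other than ttc29 passed, among them limma with a replicate block (0) and each library left out in turn (0 to 0). The exception was the fit without both libraries that stood apart, chosen after seeing the data (3). Same-numbered pools of the 2 genotypes had correlated deviations of 0.184, 0.183 and -0.394, so the numbers were not taken as pairs; the block called 3 genes of the other cilia lists, as without it. Those lists gave 5 calls with edgeR on recovered reads (of 103 tested) and 5 with summed rows (of 124). All genes gave 1037 of 19492 and 928 of 22887 in those fits. The fit without both libraries called 18 of 119 list genes, where 23.7% of all genes were called. Leaving out 1 library gave 0 to 4 list calls. Without both libraries the fold changes of cfap20 (-0.29), cfap36 (-0.27), dnah5l (0.27) and dnai2b (0.23) changed sign. With 1 library left out, these did so too: cfap20 -0.14 to 0.22, cfap36 -0.18 to 0.29, cfap53 -1.08 to 0.0761, dnaaf4 -0.37 to 0.0152, dnah5 -0.32 to 0.14, dnah5l -0.34 to 0.23, dnai1.2 -0.32 to 0.19, dnai2b -0.48 to 0.0667, kif3a -0.14 to 0.0817, rfx1a -0.20 to 0.0748, ulk4 -0.24 to 0.11 and wdr34 -0.34 to 0.0528. The cause was not tested. The log2 fold change of ttc29 was 4.33 as reported, 2.67 with a pseudocount of 5, 5.35 with edgeR and 5.59 with DESeq2, with 0 or 1 reads in wild type pools, and with any 1 mutant pool left out it did not pass the filter on low values. Over all genes limma called 1023, against 473 and 321 without mutant replicate 1 or 3, 253 and 437 without wild type replicate 2 or 3, and 5191 without both libraries. With edgeR's scaling the median of all genes was 0.012.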
